A study of Homo sapiens with 8 samples.

Results

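The unfolded protein response and the integrated stress response were followed through 35 genes, taken by symbol from the count files. They are 35 of the 50006 entries counted, and they were described in 5 arms. These were 14 endoplasmic reticulum (ER) chaperones and folding factors, 3 genes of ER-associated degradation, 4 genes for the stress sensors and XBP1, 6 genes for ATF4 and its stress targets, and 8 genes of amino acid and serine supply. Of the 35, 32 had a single entry, whereas CANX, HYOU1 and SESN2 had a second one on an alternate locus or patch. All except SESN2 passed the filter on low counts, which left 34 tested. The cells were BEAS-2B, an immortalised human bronchial epithelial line, labelled wild type and grown in LHC-9 serum-free medium in every group. Mock cells received PBS. The other 3 groups were exposed for 4 h at 4 ng/µl to fibrinogen (FBG), to FCPs derived from Der m 1, a mite allergen (FCP, labelled M1-FCP), or to the fibrinogen αC domain (aC, labelled αC). The labels do not spell out FCP, and the title of the series ascribes the αC domain to the allergen. Each group held 2 libraries numbered as biological replicates. The labels do not tie them to separate cultures, so a P value reflects the spread within these pairs and perhaps no more than technical error.

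When misfolded proteins gather in the ER, the sensors IRE1 (ERN1), ATF6 and PERK (EIF2AK3) are released from the chaperone BiP (HSPA5). IRE1 splices the XBP1 messenger RNA, ATF6 is cut to a transcription factor, and both raise chaperone and degradation genes. PERK phosphorylates the initiation factor eIF2α, a step shared with kinases that sense amino acid shortage, viral RNA and haem shortage, and the slowed translation favours production of ATF4, which raises genes of amino acid supply and of stress-linked cell death. Splicing, cleavage and phosphorylation are not seen in counts per gene, so these data hold the transcript levels of the pathway and not the activity of its sensors.

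Before any comparison, the libraries divide into Mock and FBG on one side and FCP and aC on the other. Total counts ran from 15137196 to 22258791 per library, and FCP and aC were the deeper groups. On the first principal component (75.4% of variance), Mock and FBG libraries lay between -88.3 and -62.9 and the other 4 between 72.6 and 78.8. The summed level of 9 airway epithelial markers was 960 to 969 CPM (counts scaled to the size of the library) in Mock and 813 to 825 after FBG, against 3629 to 3678 after FCP and 3555 to 3622 after aC. Of these markers, 6 reached 1 CPM in Mock and in FBG and 9 in FCP and in aC, with GRHL2 at 0 in Mock. KRT8 and KRT18 made up most of the sum in Mock and FBG. KRT5, a basal keratin, went from 2.27 and 1.80 CPM in Mock and 6.94 and 7.61 in FBG to 1572 and 1591 in FCP and 1571 and 1636 in aC, and TP63, a basal cell factor, from at most 0.202 CPM to at least 79.1. The labels do not say whether the groups came from 1 stock of cells. Of the 9 mesenchymal markers, 7 reached 1 CPM in Mock and in FBG and 6 in FCP and in aC, and COL3A1 was at 0 throughout. Their summed level was 3770 CPM in both Mock libraries, 2254 to 2276 after FBG, 582 after FCP and 566 to 572 after aC. Only CD68 of 5 leukocyte markers reached 1 CPM, CD3E was at 0 in every group, and 4 endothelial markers summed to 0.674 to 3.93 CPM. The 705 tested genes of chromosome 9, where HSPA5 and PSAT1 lie, had a median log2 fold change of 0.58 after FCP and 0.59 in aC against Mock and of 0.00 in FBG. Each difference of FCP or aC from Mock or FBG below stands beside this division and cannot be told apart from it. In bulk RNA, fewer cells of a type and less RNA per cell cannot be told apart either.

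In Mock cells the most abundant members per length belonged to the folding arm. CALR, the calcium-binding lectin chaperone, had 898 CPM per kb of its counted exons, HSP90B1 (GRP94) 376 and HSPA5 333. SLC7A5, a subunit of the large neutral amino acid transporter, followed with 257 CPM per kb, and the serine pathway enzymes PSAT1 and SHMT2 had 236 and 226. The folding arm also held low members, such as DNAJB9 at 5.71 and DNAJC3 at 8.67 CPM per kb. The sensors stood lower still, at 2.68 CPM per kb for ERN1, 2.83 for ATF6 and 2.92 for EIF2AK3. The ATF6 entry counts 33358 exon bases, which lowers its value per kb. ASNS, asparagine synthetase, was the lowest tested member at 2.28 CPM per kb, at the 45.0 percentile of tested genes. CZ1P-ASNS shares 69.5% of the ASNS exon bases on the same strand, so this level and rank are uncertain. The 32 members with a single entry took up a nearly constant share of all counts, 0.980% and 0.982% in the Mock libraries, 0.976% and 0.975% after FBG, 0.996% and 0.994% after FCP and 0.983% in both aC libraries. The arms' shares of that sum differed between groups. The folding arm held 0.567% of counts in both Mock libraries, 0.593% and 0.591% after FBG, 0.467% and 0.465% after FCP and 0.436% and 0.435% after aC. Amino acid supply held 0.313% and 0.316% in Mock, 0.284% and 0.287% after FBG, 0.444% and 0.446% after FCP and 0.463% in both aC libraries. That net gain lies in SLC7A5, singled out after its values were seen: the other 7 genes of the arm held 0.208% and 0.21% in Mock, 0.192% and 0.193% after FBG, 0.158% and 0.157% after FCP and 0.166% in both aC libraries. Among those 7, SLC3A2 rose as well, with log2 fold changes against Mock of 0.39 after FCP and 0.44 after aC.

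**Figure D1:**
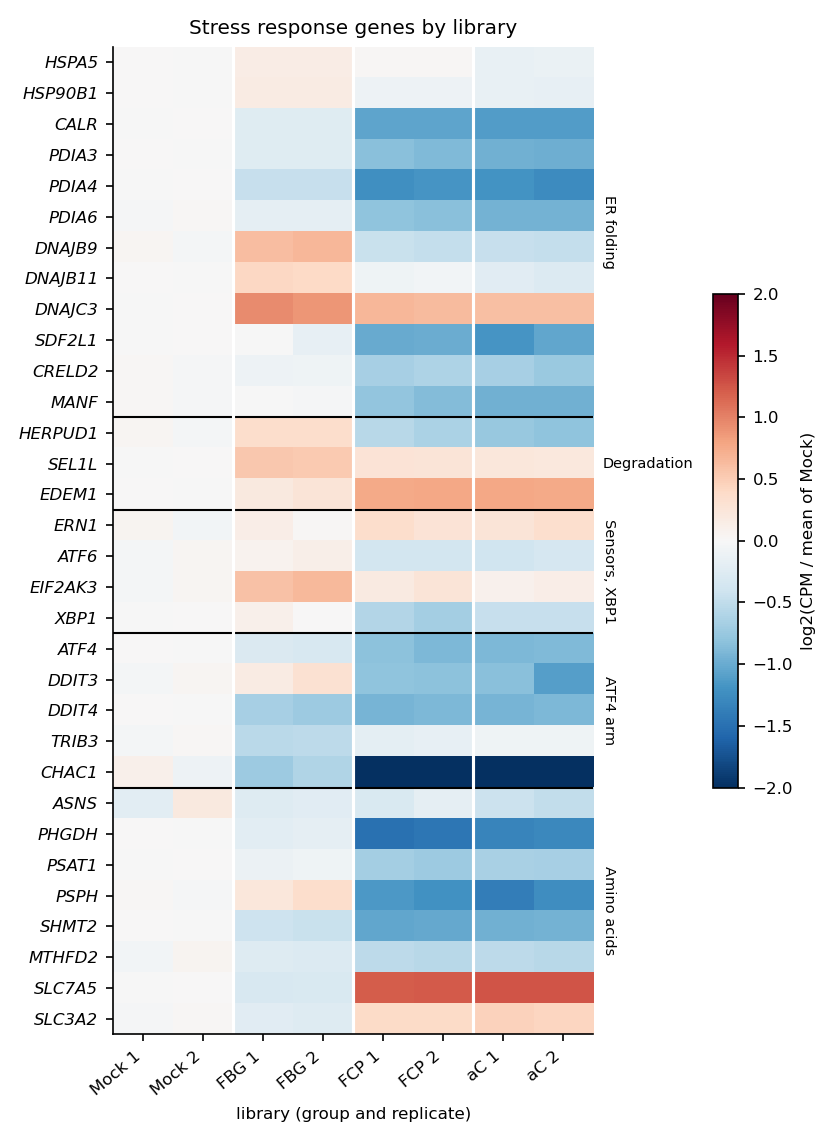
Each column is 1 library and each row 1 of the 32 members with a single entry; the colour is log2 of the library's CPM over the mean of the Mock libraries, with values beyond 2 drawn in the end colour. Libraries of a group look alike, FCP and aC columns are mostly blue, and SLC7A5 and EDEM1 stand out in red there.

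After fibrinogen, DNAJC3, DNAJB9, EIF2AK3, SEL1L and DNAJB11 rose by log2 fold changes of 0.92, 0.64, 0.62, 0.53 and 0.40. DDIT4, CHAC1, TRIB3, PDIA4 and SHMT2 went the other way, with values of -0.69, -0.66, -0.53, -0.46 and -0.43. Of the 34 tested members, 11 were higher than in Mock, 14 were lower and 9 did not pass an adjusted p of 0.05 (edgeR's quasi-likelihood test with Benjamini-Hochberg adjustment over all 16307 tested genes). That is 73.5% of the members, beside 50.4% of all tested genes called, 24.2% higher and 26.3% lower. These shares, like those of the other comparisons below, were not compared at a like level of expression. No member changed by 2-fold, which 6.9% of tested genes did. The members' median log2 fold change was -0.09 and that of all tested genes 0.02. Scaling by library size alone moved the median of all genes to 0.13 and that of the members to 0.02, and it turned the calls over all genes from 3941 higher and 4285 lower to 5186 and 3010. The arms differed in direction: degradation had 3 of 3 higher and the sensors 2 of 4 higher, with none lower in either, while the ATF4 arm had 4 of 5 lower and none higher. Of the 2 sensor calls, that of ATF6 turned to -0.21 with GC content and length trends removed. Wider lists were more mixed after FBG: 13 other tested degradation genes had 5 higher and 6 lower. The 17 genes for other sensors, kinases and eIF2 had 4 higher and 10 lower, and 25 other ATF4 targets 5 and 11. Amino acid supply had 1 of 8 higher and 6 lower, and the folding arm 5 of 14 higher and 4 lower.

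After FCP, SLC7A5, EDEM1, DNAJC3 and SLC3A2 rose by log2 fold changes of 1.22, 0.77, 0.65 and 0.39 against Mock, and CHAC1, PHGDH, PDIA4, PSPH, CALR, SHMT2 and SDF2L1 fell to 0.498 times the Mock level or below. In all, 8 members were higher, 23 lower and 3 did not pass, which is 91.2% of those tested beside 73.4% of all tested genes, 37.3% higher and 36.1% lower. The 8 members past 2-fold stand beside 28.5% of all tested genes. The median was -0.61 for members and 0.06 for all genes. Scaling by library size alone gave -0.39 and 0.28, with 10 members higher and 20 lower. The αC domain gave near values from the same Mock libraries: 6 members were higher, 24 lower and 4 did not pass, or 88.2% beside 74.7% of all tested genes, 38% higher and 36.7% lower. Past 2-fold were 7 members, beside 29.7% of genes. The median was -0.60 for members and 0.06 for all genes, and library size alone gave -0.37 and 0.29, with 10 members higher and 20 lower. The folding arm had 2 higher and 10 lower of 14 after FCP and 1 and 11 after aC, the ATF4 arm 5 and 4 lower of 5 with none higher, and amino acid supply 2 higher with 5 and 6 lower of 8. All 3 treated groups share the Mock libraries, so their values are set side by side and not counted as separate evidence.

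Against fibrinogen, FCP and aC each had 26 members lower and 5 higher, and 3 did not pass. The 5 higher ones were EDEM1, ERN1, TRIB3, SLC7A5 and SLC3A2 in both comparisons. The members called made up 91.2% in each, beside 66.8% of all tested genes for FCP (32.6% higher and 34.2% lower) and 68.3% for aC (33.8% and 34.5%). Past 2-fold were 6 members for FCP and 8 for aC, beside 20.7% and 22.6% of genes. The medians of the members were -0.55 and -0.54, and those of all tested genes 0.02 and 0.02. ERN1 lost its call against FBG without FBG replicate 2 in both comparisons, without FCP replicate 1 and without aC replicate 2, and DESeq2 did not call it for aC (0.24).

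**Figure D2:**
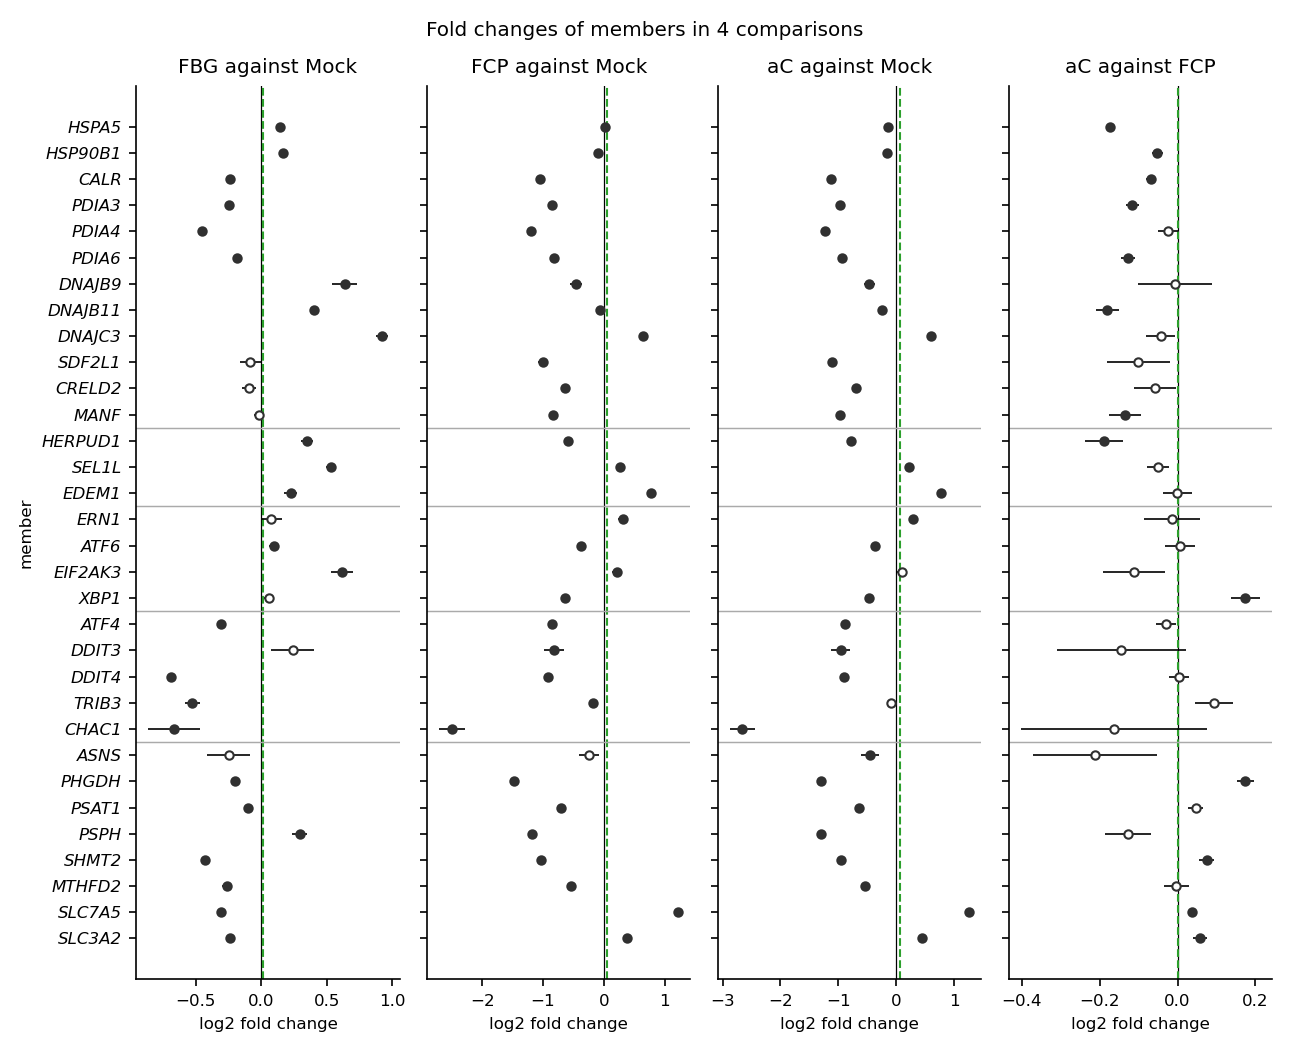
Log2 fold changes (x axis, a separate scale in each panel) of the 32 members with a single entry, in 4 comparisons. Bars are standard errors, filled points passed the adjusted p of 0.05, the dashed line is the median of all tested genes, and grey lines part the arms. Points spread to both sides for FBG, lie mostly left of 0 for FCP and aC against Mock, and lie between -0.21 and 0.17 for aC against FCP.

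The folding arm was mixed after FBG, with 5 of 14 members higher and 4 lower, beside 24.2% and 26.3% of all tested genes. After FCP and aC it was mostly lower. HSPA5, the BiP chaperone, had 1309.9 and 1302 CPM in Mock, 1445 and 1446 after FBG, 1332 and 1328 after FCP and 1175 and 1185 after aC. No 2 groups overlapped, with log2 fold changes against Mock of 0.15 ± 0.010 (SE) for FBG (adjusted p 1.36e-13), 0.03 ± 0.0093 for FCP (2.04e-05) and -0.15 ± 0.0095 for aC (4.56e-16). The FCP call was lost without either Mock library, FBG replicate 2 or either FCP library (0.01 to 0.03) and with DESeq2, while library size alone gave 0.25 and a filter on genes of at least 10 CPM gave 0.17, both called. The aC value turned to 0.08 with library size alone and to 0.01 with the 10 CPM filter. With GC content and length trends removed, HSPA5 had 0.14 for FBG, 0.09 for FCP and -0.05 for aC, all called. HSP90B1 had 1052 and 1042 CPM in Mock, 1177 and 1169 after FBG, 979 and 973 after FCP and 945 and 939 after aC. Its log2 fold changes were 0.16, -0.10 and -0.15, the last pair turning to 0.12 and 0.08 with library size alone and to 0.04 and 0.00 with the 10 CPM filter, and the first to -0.04 with the GC content and length trends removed. That removal took its FCP and aC values to -0.26 and -0.28.

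The lectin chaperone CALR and the disulfide isomerases, which fold glycoproteins and form their disulfide bonds, fell in every treated group. CALR had 1700.4 and 1712 CPM in Mock, 1446 and 1439 after FBG, 822 and 824 after FCP and 785 and 784 after aC. The 4 groups did not overlap and kept that order, with log2 fold changes against Mock of -0.24 ± 0.0094 (adjusted p 1.03e-21), -1.05 ± 0.0098 (9.21e-34) and -1.12 ± 0.0098 (2.99e-34). PDIA3, which works beside CALR, had 918 and 911 CPM in Mock, 773 and 772 after FBG, 514 and 497 after FCP and 469 and 464 after aC. The order was the same as for CALR, with log2 fold changes of -0.24, -0.86 and -0.97. PDIA4 and PDIA6, further disulfide isomerases, had log2 fold changes of -0.46 and -0.19 after FBG, -1.20 and -0.82 after FCP, and -1.23 and -0.94 after aC. PDIA4 stood at 363 and 367 CPM in Mock, 266 and 267 after FBG, 156 and 161 after FCP and 159.6 and 152 after aC, so FCP and aC overlapped there. Without strand, the counts of PDIA6 and PDIA3 are uncertain, since ATP6V1C2 and ELL3 on the other strand overlap 32.7% and 16.5% of their exon bases, and PDIA3 also has a pseudogene, PDIA3P1.

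The DnaJ co-chaperones of BiP were all higher after FBG, and after FCP and aC DNAJC3 was higher and the other two lower. DNAJC3 (p58IPK), which also inhibits PERK, had 48.9 and 49.6 CPM in Mock, 95.2 and 90.9 after FBG, 78.2 and 76.3 after FCP and 74.8 and 75.0 after aC. It rose in all 3 treated groups, by 0.92 ± 0.047 (adjusted p 1.85e-14), 0.65 ± 0.045 (1.64e-12) and 0.61 ± 0.045 (5.6e-12), and FBG stood above FCP and aC. DNAJB9 (ERdj4) had 14.2 and 13.3 CPM in Mock, 21.1 and 21.7 after FBG, 10.1 and 9.87 after FCP and 9.98 and 9.94 after aC. It rose after FBG (0.64 ± 0.094) and fell after FCP (-0.46 ± 0.098) and aC (-0.47 ± 0.097). DNAJB11 (ERdj3) had 119 and 118 CPM in Mock, 157 and 156 after FBG, 112 and 114 after FCP and 101 and 97.8 after aC. Its log2 fold changes were 0.40 for FBG, -0.07 for FCP and -0.25 for aC. The FCP value is a bare call (adjusted p 0.042), which was lost without either Mock, either FCP or either aC library (-0.09 to -0.06) and with DESeq2, and which turned to 0.15 with library size alone and to 0.07 with the 10 CPM filter. The aC call was lost with library size alone (-0.02), and the value was -0.10 with the 10 CPM filter.

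SDF2L1, CRELD2 and MANF, small ER-resident proteins that ER stress is known to raise, did not pass in FBG (log2 fold changes of -0.08, -0.10 and -0.02), with library size alone giving MANF 0.10 and a call, and the removal of GC and length trends giving SDF2L1 0.22 and MANF 0.16, each a call. After FCP they fell, with values of -1.005, -0.64 and -0.83, and after aC with -1.11, -0.70 and -0.96. MANF had 101 and 98.7 CPM in Mock, 99.6 and 98.0 after FBG, 57.5 and 54.8 after FCP and 51.2 and 51.1 after aC. Mock and FBG overlapped and lay above FCP and aC. CANX and HYOU1 could not be read. CANX had 379 and 330 counts in Mock, 429 and 403 after FBG, 2622 and 632 after FCP and 565 and 566 after aC, and its second entry 1926 to 4414. HYOU1 had 37 and 1053 counts in the Mock libraries alone. Libraries of 1 group thus differed far beyond counting error at these entries, and neither gene passed in any comparison (adjusted p 0.123 or above), except that DESeq2, and edgeR with an FCP library left out, called CANX higher in FCP.

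The 3 degradation members rose together in FBG and parted in FCP and aC. HERPUD1, a membrane protein of the degradation complex, had 63.7 and 60.9 CPM in Mock, 79.5 and 79.1 after FBG, 42.4 and 40.3 after FCP and 37.0 and 35.6 after aC. The groups did not overlap, with log2 fold changes against Mock of 0.35 ± 0.047 (adjusted p 1.42e-06), -0.59 ± 0.048 (1.49e-10) and -0.78 ± 0.048 (1.1e-12). SEL1L, the adaptor of the HRD1 ligase, had 99.0 and 99.2 CPM in Mock, 144 and 142 after FBG, 120.3 and 119 after FCP and 116 and 115 after aC. It was higher in every treated group (0.53, 0.27 and 0.22), although removal of the GC and length trends turned the last pair to -0.32 and -0.36 and lowered the first to 0.17. EDEM1, a lectin that delivers misfolded glycoproteins, had 51.3 and 51.0 CPM in Mock, 58.7 and 60.9 after FBG, 86.7 and 87.3 after FCP and 87.2 and 86.9 after aC. FCP and aC overlapped at the top, with log2 fold changes of 0.23 ± 0.050, 0.77 ± 0.043 and 0.77 ± 0.043, and the first lost its call (0.07) once the trends were removed.

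Among the sensors, EIF2AK3, which encodes PERK, had 15.4 and 16.1 CPM in Mock, 23.8 and 24.6 after FBG, 17.8 and 18.8 after FCP and 16.7 and 17.2 after aC. FBG stood above the other 3 groups, with a log2 fold change of 0.62 ± 0.085 (adjusted p 1.12e-06). The FCP value of 0.21 ± 0.083 (0.0218) was lost without Mock replicate 1 (0.17), without FCP replicate 2 (0.18), with DESeq2 and with the trends removed (0.12), and the aC value was 0.10 (0.255), though called with library size alone (0.33) and with the 10 CPM filter (0.26). Transcripts on the other strand, EIF2AK3-DT among them, overlap 20.4% of its exon bases, so its counts are uncertain as well. ERN1, which encodes IRE1, had 21.9 and 20.4 CPM in Mock, 23.2 and 21.5 after FBG, 27.0 and 25.6 after FCP and 25.3 and 26.8 after aC. Mock and FBG overlapped (0.08 ± 0.080, called at 0.19 with library size alone), and FCP and aC lay above them at 0.31 ± 0.075 and 0.30 ± 0.075. ATF6 had 92.2 and 96.3 CPM in Mock, 99.3 and 102 after FBG, 72.8 in both FCP libraries and 71.2 and 75.1 in aC. It fell in FCP and aC, with values of -0.37 ± 0.039 and -0.37 ± 0.038. Its FBG value of 0.10 (0.0422) was lost without Mock replicate 1 (0.06), FBG replicate 2 (0.07) or either FCP library (0.10) and with DESeq2, and turned to -0.21 with the trends removed. XBP1, the factor whose messenger RNA is spliced by IRE1, had 109.2 and 109.3 CPM in Mock, 117 and 110.4 after FBG, 72.5 and 68.1 after FCP and 79.5 and 79.0 after aC. FBG was not called (0.06), but it was called higher with library size alone (0.17) and with the 10 CPM filter (0.11), and lower with the trends removed (-0.12). FCP was lowest (-0.64 ± 0.038, adjusted p 7.3e-13) and aC between (-0.46 ± 0.038, 1.77e-10). As an arm, the sensors' median was -0.08 for FCP and -0.13 for aC against Mock, turning to 0.14 and 0.10 with library size alone.

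**Figure D3:**
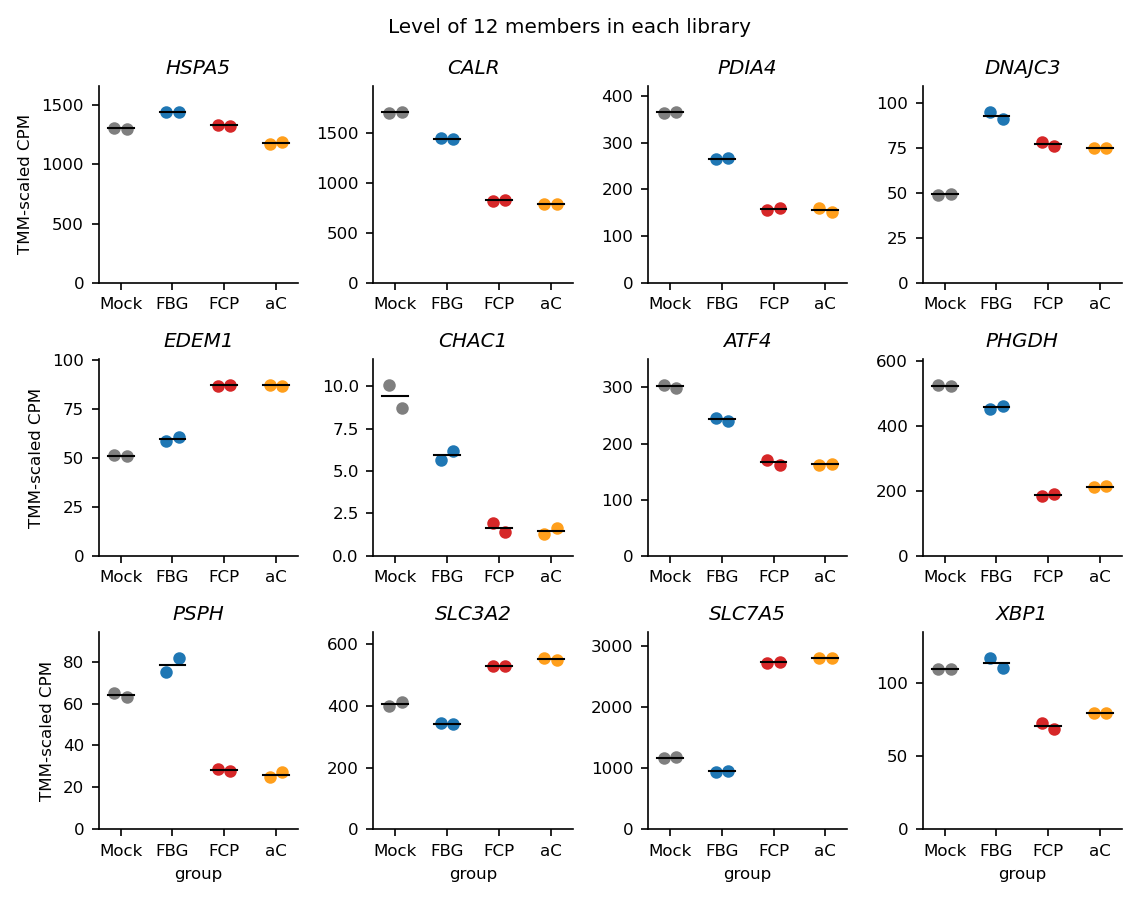
Levels (y axis, CPM after TMM scaling, starting at 0) of 12 members in each of the 8 libraries, by group (x axis). Points are libraries and the bar is the mean of the group. Points of a group lie close together, CHAC1 shows the widest relative spread, and SLC7A5, SLC3A2 and EDEM1 stand highest in FCP and aC.

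Most of the ATF4 arm was lower in each treated group, with 4, 5 and 4 of 5 tested members called lower after FBG, FCP and aC. Of all tested genes, 26.3%, 36.1% and 36.7% were called lower. ATF4 had 305 and 299 CPM in Mock, 246 and 241 after FBG, 171 and 162 after FCP and 162 and 164 after aC. Mock, FBG and the overlapping FCP and aC formed 3 steps, with log2 fold changes of -0.31 ± 0.026 (adjusted p 1.05e-09), -0.86 ± 0.026 (2.69e-18) and -0.89 ± 0.026 (1.31e-18). The trends removed left -0.09, -0.38 and -0.43, all called, so the FBG step was then small. These are levels of ATF4 messenger RNA, while the pathway acts on its translation. CHAC1, a glutathione-degrading enzyme and ATF4 target, had 10.1 and 8.73 CPM in Mock, 5.66 and 6.20 after FBG, 1.92 and 1.40 after FCP and 1.31 and 1.65 after aC. It showed the largest fold of any tested member with a single entry in FCP and aC, at -2.50 ± 0.21 (3.77e-10) and -2.66 ± 0.21 (1.41e-10), from 44 and 32 counts in the FCP libraries and 31 and 39 in aC. Its FBG value of -0.66 ± 0.20 (0.00732) was lost without Mock replicate 1 (-0.56) or FBG replicate 1 (-0.60), with DESeq2 and with the trends removed (-0.39).

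DDIT4, an inhibitor of mTORC1 signalling, had 268 and 267 CPM in Mock, 169.6 and 162 after FBG, 141 and 143 after FCP and 141 and 144 after aC. It fell in each treated group (-0.69 ± 0.027, -0.91 ± 0.026 and -0.91 ± 0.026), and most of the step was already there in FBG. Its further fall from FBG to FCP and aC (-0.22 in each) turned to 0.07 and 0.03 with the trends removed. TRIB3, a pseudokinase that dampens ATF4, had 51.0 and 53.3 CPM in Mock, 36.1 and 36.4 after FBG, 45.4 and 46.4 after FCP and 49.0 and 48.9 after aC. FBG was lowest here, with -0.53 ± 0.057 (adjusted p 1.32e-08), while FCP had -0.18 ± 0.050 (0.00223) and aC -0.09 ± 0.050 (0.104). Removal of the trends turned the FCP and aC values to 0.24 and 0.28, both called higher. Library size alone turned them to 0.04 and 0.14, and the aC value was then called higher. The FCP call was lost with library size alone and with the 10 CPM filter (-0.04). Without Mock replicate 1 the aC value passed (-0.13). DDIT3 (CHOP), the factor tied to stress-induced cell death, had 6.80 and 7.13 CPM in Mock, 7.82 and 8.62 after FBG, 3.97 and 3.93 after FCP and 3.89 and 3.26 after aC. It fell after FCP (-0.82 ± 0.17, adjusted p 0.00013) and aC (-0.96 ± 0.17, 1.93e-05) and was not called for FBG (0.24 ± 0.16, 0.238). The FCP call was lost with the trends removed (-0.35), and 14.4% of its counted exon bases overlap neighbours, MARS1 among them, so its counts are uncertain without strand. SESN2 had 1 count in all at its main entry, and its second entry had 1 to 29 counts, so no level is given.

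Serine synthesis and one-carbon enzymes were lower in FCP and aC, and the transporter pair was higher. PHGDH, the first enzyme of serine synthesis, had 527 and 523 CPM in Mock, 451 and 463 after FBG, 186 and 192 after FCP and 211 and 215 after aC. No groups overlapped, with log2 fold changes of -0.20 ± 0.020 (adjusted p 1.82e-08), -1.47 ± 0.021 (3.41e-24) and -1.30 ± 0.021 (1.91e-23). PSPH, the last enzyme of the route, had 65.1 and 62.9 CPM in Mock, 75.1 and 81.7 after FBG, 28.9 and 27.6 after FCP and 24.7 and 27.1 after aC. It rose after FBG (0.29 ± 0.055, 0.00011), unlike PHGDH, and fell after FCP (-1.18 ± 0.058) and aC (-1.31 ± 0.058). PSAT1, the middle enzyme, had 519 and 523 CPM in Mock, 481 and 489 after FBG, 326 and 316 after FCP and 334 and 329.7 after aC. Its log2 fold changes were -0.10, -0.70 and -0.65, the first turning to 0.01 with library size alone. The mitochondrial enzymes SHMT2 and MTHFD2 fell as well, with log2 fold changes of -0.43 and -0.26 after FBG, -1.03 and -0.54 after FCP and -0.96 and -0.54 after aC, and 29.4% of the MTHFD2 exon bases overlap SLC4A5 on the other strand. MTHFD2, ASNS and SLC7A5 also have annotated pseudogenes, to which some of their reads could be assigned. ASNS had 6.34 and 8.40 CPM in Mock, 6.13 and 6.27 after FBG, 5.94 and 6.50 after FCP and 5.50 and 5.24 after aC. The Mock libraries differed most, and only aC was called (-0.46 ± 0.16, adjusted p 0.0145). That call was lost without Mock replicate 2 (-0.25) or aC replicate 2 (-0.42), with DESeq2, with library size alone (-0.22) and with the trends removed (-0.27), and the FCP value of -0.24 passed without Mock replicate 1 (-0.44). CZ1P-ASNS shares 69.5% of the ASNS exon bases on the same strand, so its counts are uncertain.

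SLC7A5 (LAT1) and SLC3A2 (CD98 heavy chain) form 1 transporter for large neutral amino acids. SLC7A5 had 1162 and 1178 CPM in Mock, 936 and 952 after FBG, 2717 and 2730.4 after FCP and 2792 and 2796 after aC. It fell after FBG (-0.31 ± 0.023, adjusted p 0.000343) and rose after FCP (1.22 ± 0.0087, 2.28e-09) and aC (1.26 ± 0.0087, 1.48e-09), to 2.33 and 2.39 times the Mock level. SLC3A2 had 399 and 412 CPM in Mock, 346 and 339.8 after FBG, 531 and 529 after FCP and 555 and 548 after aC. It took the same course at a smaller size, with -0.24 ± 0.020 (8.76e-10), 0.39 ± 0.019 (1.23e-14) and 0.44 ± 0.018 (7.9e-16). The FBG falls of both were lost once the trends were removed (-0.08 and -0.02), and the FCP rises then became 1.53 and 0.80.

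Between aC and FCP, which share no library with each other, HSPA5, DNAJB11, HERPUD1, MANF, PDIA6, PDIA3, CALR and HSP90B1 were lower in aC, and PHGDH, XBP1, SHMT2, SLC3A2 and SLC7A5 were higher. These 13 members are 38.2% of those tested, beside 9.01% of all tested genes, 4.57% higher and 4.45% lower. In Mock, these members stood between the 82.2 (HERPUD1) and the 99.7 (CALR) percentile of tested genes in CPM per kb. The shares were not compared at a like level of expression. All the differences were small. HERPUD1 (-0.19 ± 0.048, adjusted p 0.0122), DNAJB11 (-0.18 ± 0.030, 0.000218) and HSPA5 (-0.17 ± 0.0085, 3.1e-17) led the lower ones, and XBP1 (0.17 ± 0.038, 0.00349) and PHGDH (0.17 ± 0.022, 9.61e-06) the higher ones. No member reached 2-fold, as 0.399% of tested genes did. The libraries did not overlap for any of the 13, but neither did they for members not called, such as DNAJC3, SEL1L and PSAT1. The share of all tested genes without overlap was not counted. Several calls rested on single libraries: HERPUD1 was lost without FCP replicate 1 (-0.15) or aC replicate 2 (-0.16), HSP90B1 without the same libraries (-0.05), MANF without FCP replicate 1 (-0.10), aC replicate 1 (-0.14) or aC replicate 2 (-0.13), and XBP1 without FCP replicate 2 (0.13). SHMT2 was lost without either FCP library or aC replicate 2 (0.07 to 0.08), and SLC3A2 and SLC7A5 without any 1 of the 4 libraries (0.05 to 0.07 and 0.03 to 0.04). With the trends removed, SLC7A5 turned to -0.02, and HSP90B1 (-0.02), SHMT2 (0.05) and SLC3A2 (0.03) lost their calls. HERPUD1, MANF, SHMT2 and SLC3A2 were not called with DESeq2, nor HSP90B1 and MANF with library size alone. PSAT1 gained a call with the 10 CPM filter (0.06) and with the trends removed (0.08). HSPA5, DNAJB11, PDIA3, PDIA6, CALR and PHGDH were called with each library left out. DESeq2 called 9 members and 867 genes, against 13 and 1470. The ATF4 arm had no member called, with log2 fold changes from -0.16 ± 0.24 for CHAC1 to 0.09 ± 0.049 for TRIB3.

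Other genes of the pathway, 98 from 5 lists of which 97 were tested, gave the surroundings of the members. After FBG, 29 were higher and 43 lower (median -0.04), after FCP 18 and 66 (-0.46) and after aC 19 and 69 (-0.50). The shares called were 74.2%, 86.6% and 90.7%, beside 50.4%, 73.4% and 74.7% of all tested genes. Of 22 further ER folding and entry genes, 16 were lower and 5 higher after FCP, among them the prolyl isomerase PPIB (-1.18) and the translocon subunit SEC61A1 (-0.61), with the reductase DNAJC10 (0.50) and the oxidase ERO1A (0.32) higher. Of 13 tested degradation genes, 9 were lower and 1 higher after FCP, or 76.9%, near the share of all genes, with the lectin OS9 at -0.73 and the mannosidase EDEM3 at 0.67. Among 25 ATF4 targets, 16 were lower and 5 higher after FCP. STC2, a secreted glycoprotein, had 841 CPM on average in Mock, 114 after FCP and 121 in aC, with log2 fold changes of -2.88 and -2.79, and the proline enzyme PYCR1 had -1.64 and -1.60. The cystine transporter SLC7A11 went up, by 0.99 after FBG, 1.30 after FCP and 1.48 after aC, and the cell cycle inhibitor CDKN1A by 0.82 after FCP and 1.05 after aC. Of 20 aminoacyl-tRNA synthetases, 13 were lower and 4 higher after FCP, with AARS1 at -1.23, SARS1 at -1.07, EPRS1 at 0.53 and NARS1 at 0.45. The 17 genes for other sensors, kinases and eIF2 had 12 lower and 3 higher, with the ER membrane protein WFS1 at -1.37, CREB3L2 at -0.78, the double-stranded RNA kinase EIF2AK2 (PKR) at 0.39 and the protease MBTPS2 at 0.39. Between aC and FCP, 5 of the 97 were higher, all ATF4 targets, and 10 lower, or 15.5% beside 9.01% of all tested genes. CEBPB (0.49) and CDKN1A (0.23) led the higher ones, and 6 of the 10 lower were tRNA synthetases such as RARS1 (-0.13) and YARS1 (-0.12).

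Fold changes moved with the GC content of the transcript, most in FBG. Across 14036 genes with a GC value, Spearman's rho between GC and the log2 fold change was -0.40 for FBG against Mock, -0.26 for FCP, -0.23 for aC and 0.15 for aC against FCP. Over the 32 members with a single entry it was -0.69, -0.42, -0.35 and 0.13, a description across genes that share the same libraries. The 9 members at or below 43.8% GC had a median log2 fold change of 0.16 after FBG, with 6 higher and 2 lower, beside 0.26 for all genes of that range. The 10 members above 53.5% had -0.31, with none higher and 8 lower, beside -0.22 for all genes there. DNAJC3 and SEL1L, among the highest in FBG, belong to the first set, and DDIT4, CHAC1 and TRIB3 to the second. With GC and length trends removed in each library, DNAJC3 stayed at 0.63, DNAJB9 at 0.41, EIF2AK3 at 0.54 and DDIT4 at -0.44 after FBG, while DNAJB11 came to 0.10 and CALR to -0.06. After FCP the same step left CHAC1 at -1.92, PHGDH at -1.33, PSPH at -0.99, PDIA4 at -0.90 and CALR at -0.60, and brought SDF2L1 to -0.34, MANF to -0.29, ATF4 and DDIT4 to -0.38, DNAJC3 to 0.24 and ATF6 to -0.97. The part of GC content in these differences was not tested beyond that step.

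**Figure D4:**
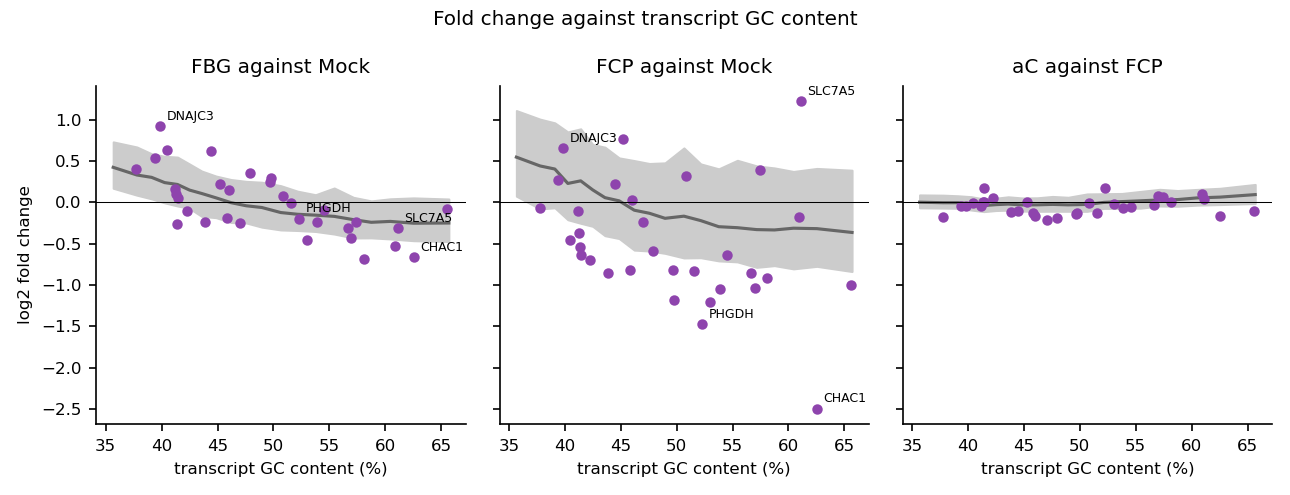
Log2 fold change (y axis) against transcript GC content in percent (x axis) in 3 comparisons. Purple points are the 32 members with a single entry, the line is the median and the band the middle of the distribution between quartiles of all tested genes in 20 bins of GC content. In FBG against Mock the members slope down with the band; in FCP against Mock most lie below the line, with SLC7A5 far above and CHAC1 far below; in aC against FCP they lie near 0.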

How the data were processed

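Per the file headers, the authors counted read pairs over exons for each gene with featureCounts in paired-end mode, with neither a strand nor a multi-mapping option, and deposited raw counts. The headers give version 1.6.0. The submitters' processing notes give 1.6.2 and also name Trimmomatic 0.39, HISAT2 2.2.1, SAMtools 1.9 and GRCh38.p14. Total counts were 16553366 and 16561302 (Mock), 15137196 and 15144403 (FBG), 21715092 and 21680688 (FCP), 22258791 and 22248780 (aC). A level of 3 counts equals 0.2 CPM for Mock, 0.202 for FBG, 0.131 for FCP, 0.127 for aC. Such floors cover counting error only.

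The test was edgeR 4.0.16 under R 4.3.3, in its robust quasi-likelihood form, with TMM scaling and its own filter on low counts by group. One fit of all 8 libraries left 4 residual degrees of freedom. P values were adjusted by Benjamini-Hochberg over 16307 genes within each of 6 comparisons. A gene was called under 0.05. The common biological coefficient of variation was 0.102. A standard error is the larger of that from the fit and that from counting. The fit's was the smaller for 9 members in FBG against Mock, 10 in FCP and 11 in aC, and no called member's 95% counting interval included 0. P values rest on the fit alone. For such members, HSPA5 among them, they are smaller than the printed error would give. The script was tested on simulated data, with fewer changed genes than here and a spread below the common value. That run checks the code and not the calls in these data. CPM in the text use the TMM-scaled totals, and CPM per kb divide by the exon length in the files.

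Of the 50006 entries, 6499 lie on alternate loci or patches. Between libraries of a group, genes with 1 entry varied on average 1.26 to 1.34 times as much as counting alone would give, and genes with copies 44.7 to 57.7 times. The median over genes with copies was only 2.13 to 2.56, so a part of them with extreme values set that average. GC content came from the longest GENCODE transcript matched by symbol. Members and lists were chosen with earlier results of these data known. Any member could be named. Of the other pathway genes, those with the smallest p, up to 2 in each direction, list and comparison, could be named. Alternatives were DESeq2 1.42.0, other scalings and filters, summed copies, 2-group fits, GC and length trends removed, a replicate block, each library left out and, chosen after seeing the data, members with copies left out.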

Additional observations from a re-analysis of the deposited data

How the results depend on the processing

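Counts of called members and genes stayed within 1.5 times for FBG, FCP and aC against Mock and for FCP and aC against FBG under every alternative run. For aC against FCP, DESeq2 called 867 genes in place of 1470, and leaving out 1 library in turn gave 853 to 1616 genes and 7 to 13 members. A group left with 1 library was assumed to vary like the others. Single members depended more on the setting. Of the 25, 31 and 30 members called in FBG, FCP and aC against Mock, 15, 17 and 16 kept their direction but moved by over 1.5 times with GC and length trends removed, and 12, 11 and 10 with library size only. Some directions turned, among them values well away from 0 such as SEL1L in FCP (0.27 before). With library size only, MANF had 0.10 and PSAT1 0.010 in FBG, HSP90B1 0.12, DNAJB11 0.15 and TRIB3 0.036 in FCP, and HSPA5 0.084, HSP90B1 0.078 and TRIB3 0.14 in aC, all against Mock. With the 10 CPM filter, FCP gave HSP90B1 0.041 and DNAJB11 0.071, and aC gave HSPA5 0.0078 and HSP90B1 0.0014. With GC and length trends removed, FBG gave HSP90B1 -0.039, SDF2L1 0.22, MANF 0.16, ATF6 -0.21 and XBP1 -0.12, FCP gave SEL1L -0.32 and TRIB3 0.24, aC gave SEL1L -0.36 and TRIB3 0.28, aC against FCP gave SLC7A5 -0.019, and against FBG DDIT4 had 0.065 in FCP and 0.028 in aC. The replicate block with these trends removed turned the same 12 values, to the same 2 decimals. The cause of the turns was not tested. Deviations of same-numbered libraries correlated between groups at -0.09 to 0.07. The spread within a group was close to counting error, so these values cannot show whether replicate numbers pair the libraries. With the replicate block alone, 25, 30, 30, 12, 31 and 31 members were called in FBG, FCP and aC against Mock, aC against FCP, and FCP and aC against FBG. It ended the calls of DNAJB11 in FCP and of SLC3A2 in aC against FCP. CHAC1, with 31 to 151 counts per library, and the other low members limit what this depth can show.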
